A study of Homo sapiens with 5 samples.

Results

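MCF12A cells are an established human line from breast epithelium that does not form tumours. The measurements described here set one array of MCF12A cells exposed for 4 weeks to 1% acetaldehyde against one array of cells that received no compound. Acetaldehyde is the reactive aldehyde that cells form when alcohol dehydrogenase oxidises ethanol, and aldehyde dehydrogenases clear it to acetate. It can form adducts with proteins and DNA, and in breast tissue it is studied as a possible link between alcohol and cancer. Epithelial cells can also pass through a mesenchymal transition, in which matrix, contractile and migratory genes are turned up while junction and keratin genes are turned down, often through TGF-beta, ZEB and TWIST factors.

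The comparison was made over genes, each read through its brightest probe set. Of 17958 genes with a probe set that names 1 symbol, 11194 had an intensity at or above 70.2, the median of the table, on at least one of the 2 arrays. These 11194 genes are the ones compared, and 70.2 is called the floor. It is a rank in the table and not a measured background. All cultures were grown in the same medium with horse serum, epidermal growth factor, hydrocortisone, insulin and cholera toxin. The third array of the same table, from cells kept 4 weeks in 2.5% ethanol, is given beside the others for orientation. The cultures of these 3 arrays were monolayers. Both treated arrays are read against the same control array, so their differences from control are not independent, and the doses differ. The labels give no time in culture for the control, and a protocol text for the series also speaks of 1-week exposures at other doses, which were not used here. With 1 array in each group no test was possible, no p-value is given, and every difference below is a difference between single arrays. A clone selected in soft agar and exposed to 2.5% ethanol for 4 weeks, with its own control, is taken up near the end.

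The array medians lay between 69.98 and 70.61. The basal keratin gene KRT5 stood at an intensity of 6056 in control and 6194 in acetaldehyde. The simple keratin gene KRT18 stood at 986 and 951, so both of these keratin genes were bright. Of 13 basal and myoepithelial markers, 12 were past the floor on both arrays, with summed intensities of 16197 and 17294. Of 16 luminal markers, 9 were past it on each array, with sums of 5722 and 6429. Of 10 endothelial markers, 1 was past the floor on each array, and of 11 immune markers, 3. The deposited values of both arrays were equal, within 1e-06 on the log2 scale, for 4244 of the 11194 genes (37.9%). Identical values in so many genes are unusual for RMA, the method of normalisation, on separate arrays, and how they arose was not tested, so an equal value is not read as a measured absence of difference. Among all probe sets ranked by control intensity in 10 groups, equal values made up 12.4% of the brightest group and 64.9% of the third from the bottom. Within 1.1-fold of control lay 8932 genes (79.8%), equal values included.

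Acetaldehyde cells differed from control almost wholly by genes that were higher. At least 2-fold higher were 115 of 11194 genes (1.03%), and at least 2-fold lower were 6 (0.0536%). At 3-fold the counts were 56 and 1, at 4-fold 31 and 0, and at 8-fold 10 and 0. The median difference over all compared genes was 0 on the log2 scale and its standard deviation across genes 0.25. Genes dim in control supplied many of the higher ones: 51 of the 115 had a control intensity under the floor and 64 did not. Those 51 passed the floor through the acetaldehyde array, where they are high, so the counts of higher genes in the lists are partly set by the floor. Restricted to genes past the floor in control, 6 of 26 matricellular and proteoglycan genes, 3 of 27 collagen genes, 2 of 17 matrix protease and inhibitor genes and 6 of 31 YAP and TAZ genes were at least 2-fold higher. Over all genes, the share was 0.762% of the 6303 with control from the floor to 4 times it. It was 0.419% of the 3823 with control from 4 to 16 times the floor. Among the 939 genes at 16 times the floor or brighter in control (1124 and up), 0 were 2-fold higher and 2 were 2-fold lower. In whole cultures, more cells of one kind and more RNA per cell cannot be told apart. Just past the upper limit was RASA3 with a log2 difference of 1.00 and just short of it SORBS2 with 0.99; at the floor, MAMSTR was just inside at an intensity of 70.27 and ALPI just outside at 70.18.

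**Figure D1:**
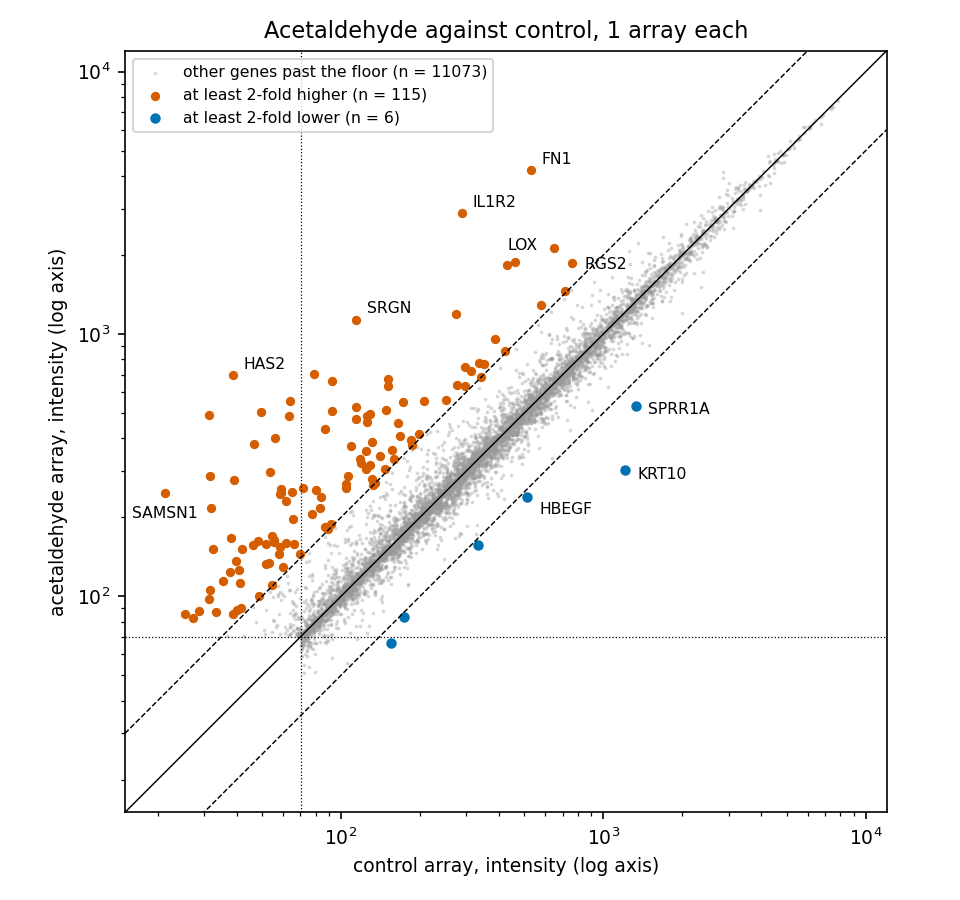
Intensity on the acetaldehyde array (vertical, log axis) against the control array (horizontal, log axis) for the 11194 genes past the floor, 1 point per gene; the solid line is equality, dashed lines are 2-fold and dotted lines the floor of 70.2. The 115 higher genes spread above the upper dashed line mainly on the left, where control is dim, while 6 genes lie below the lower dashed line.

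The gene furthest above control was HAS2, which encodes an enzyme of the plasma membrane that spins out hyaluronan, the large sugar polymer of loose matrix. Its intensity was 38.6 in control, 699 in acetaldehyde and 266 in ethanol, so control lay under the floor and acetaldehyde stood highest of the 3 arrays. Against the floor it was at least 9.95-fold higher in acetaldehyde. Hyaluronan needs more than its synthase, and of 6 compared genes of its synthesis, binding and breakdown 2 were at least 2-fold higher and 0 lower. The other one past 2-fold was VCAN, which encodes the hyaluronan-binding proteoglycan versican, at 421 in control, 861 in acetaldehyde and 1069 in ethanol. CD44, the main hyaluronan receptor gene, had a log2 difference of -0.05, and CEMIP2, which encodes a surface hyaluronidase, had 0.58.

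Matrix genes made up the broadest group. Of 30 matricellular and proteoglycan genes, 9 were at least 2-fold higher and 0 lower, and the median of the list on the log2 scale was 0.48, against 0 over all compared genes. SRGN encodes serglycin, the proteoglycan of secretory granules, and read 114 in control, 1132 in acetaldehyde and 1982 in ethanol. SPOCK1, a testican proteoglycan gene, read 84.0, 239 and 380.4 in the same order, and GPC6, a glypican gene of the cell surface, 141, 342 and 656. The small leucine-rich proteoglycan genes DCN and BGN parted in the order of the treated arrays. DCN, for decorin, read 31.4, 98.0 and 88.1, whereas BGN, for biglycan, read 129, 318 and 993, so that BGN was 3.13-fold brighter in ethanol than in acetaldehyde. For DCN the treated arrays lay only 1.11-fold apart. Against the floor, DCN was at least 1.40-fold higher in acetaldehyde than in control. THBS1, the thrombospondin gene, and EFEMP1, a fibulin gene, stayed short of 2-fold with log2 differences of 0.92 and 0.90.

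Collagens were uneven. Of 28 genes of collagen chains and their processing, 3 were at least 2-fold higher and 0 lower, with a median of 0.22. COL12A1, whose product decorates collagen fibrils, read 87.0 in control, 432 in acetaldehyde and 754 in ethanol. COL6A1, a chain of beaded microfibrils, read 165, 457 and 743, and LOX, which encodes the enzyme that cross-links collagen and elastin, read 462, 1872 and 2314. The fibril-forming chains that mark fibroblasts did not share this. COL1A1 had a log2 difference of 0.06, COL1A2 0.00 and COL3A1 0.02. Over 11 fibroblast markers the summed intensity was 616 in control and 724 in acetaldehyde. By the values as deposited, DCN was the only one of the 5 past the floor to reach 2-fold, with its control under the floor. The type IV chains of basement membrane, COL4A2 and COL4A1, had 0.84 and 0.72, and the lysyl hydroxylase genes PLOD2 and PLOD1 0.94 and 0.81.

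Among 9 laminin and basement membrane genes, LAMA4 was the only one past 2-fold, at 38.7 in control, 85.8 in acetaldehyde and 314 in ethanol. It lay barely above the floor in acetaldehyde, so the fold against the floor is at least 1.22. LAMB3, a chain of the laminin that anchors epithelium, stood lowest of this list with -0.45. Integrin and fibronectin genes, of which 2 of 12 were past 2-fold and 0 lower, were also uneven. ITGA5, one chain of the classical fibronectin receptor, read 296, 748 and 1024, and FN1, its ligand, read 529, 4204 and 5293, whereas ITGA2 and ITGB4, of collagen and laminin receptors of epithelium, had -0.41 and -0.29. FN1 has a second probe set near the bottom of the table, at 27.5 in control and 31.7 in acetaldehyde, and with the mean of both its log2 difference was 1.60 in place of 2.99.

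Of 23 matrix proteases and their inhibitors, 6 were at least 2-fold higher and 0 lower, with a median of 0.24. Some inhibitors were among the 6, but TIMP1 with 0.72, TIMP2 with 0.67 and TIMP3 with -0.08 stayed short of 2-fold. In a separate list of clade B serpins and epithelial protease inhibitors, 0 of 10 were past 2-fold. TFPI2, SERPINE2, RECK and ADAMTS9 were under the floor in control and passed it through the acetaldehyde array. TFPI2, which encodes a Kunitz inhibitor of plasmin and trypsin-like enzymes, read 63.7 in control, 553 in acetaldehyde and 1647 in ethanol. TFPI, the inhibitor of tissue factor, read 277, 639 and 1073. SERPINE2, a serpin that blocks thrombin and urokinase, read 63.1, 488 and 1409. RECK, a membrane-anchored inhibitor of metalloproteinases, read 70.05, 145 and 224, and the protease genes past 2-fold were MMP2, which encodes a gelatinase, at 151, 631 and 1026, and ADAMTS9, which encodes a versican-cleaving enzyme, at 55.8, 161 and 243. All 6 stood above control on both treated arrays and higher in ethanol than in acetaldehyde.

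The regulators of mesenchymal transition were higher in part. TWIST1, which encodes a helix-loop-helix repressor of E-cadherin, and ZEB2, a zinc finger repressor gene, were the 2 of 21 listed genes past 2-fold, and 0 were lower, with a median of 0.12. ZEB2 was under the floor in control. Of the 18 listed genes past the floor in control, 1 was 2-fold higher, and their median was 0.05. ZEB2 read 61.5 in control, 160.2 in acetaldehyde and 318 in ethanol; its second, dim probe set read 12.7 on both the control and acetaldehyde arrays. ZEB1 and the N-cadherin gene CDH2 each had 0.95, the vimentin gene VIM 0.47 and SNAI1 0.44. Meanwhile none of 27 cadherin and junction genes was 2-fold away, with a median of -0.11. The lowest of them was MARVELD2, for tricellulin at the corners between cells, with -0.47. Contractile genes were mixed. Of 29 actin and smooth muscle type genes 2 were past 2-fold and 0 lower, CNN3, for a calponin, at 77.2, 206 and 278 in control, acetaldehyde and ethanol, and TNS1, for a tensin of focal adhesions, at 89.5, 181 and 353. ACTA2, for smooth muscle actin, read 218, 422 and 358. Of 5 compared markers of smooth muscle and pericytes 3 were higher than control, ACTA2 with 0.96, NOTCH3 with 0.67 and MCAM with 0.57, and DES and RGS5 were equal, with MYH11 and CSPG4 under the floor. The summed intensity of the 7 measured markers was 1337 in control, 1984 in acetaldehyde and 2284 in ethanol, and the part of such cells in the result was not tested.

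The TGF-beta list held 1 gene past 2-fold of 26, the ligand gene TGFB2, at 92.5 in control, 661 in acetaldehyde and 1793 in ethanol. Its median was 0.03. TGFB1 had 0.43, LTBP1, for a latency protein that stores the ligand in matrix, 0.71, and the receptor genes TGFBR1 and TGFBR2 0.36 and 0.39. None of 11 BMP and ID genes was 2-fold away, the highest being ID1 with 0.36.

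YAP and TAZ are co-activators that enter the nucleus when cells spread or lose contact and that bind DNA through TEAD factors. Of 31 compared genes of this pathway 6 were at least 2-fold higher and 0 lower, while the median was 0.04. They were TGFB2, CCN2, RBMS3, CCN1, IGFBP3 and VGLL3. The lists overlap, so these are not separate genes in each list. CCN1 and CCN2 are also counted among the matricellular genes, TGFB2 in the TGF-beta list and IGFBP3 among the IGF binding proteins. CCN2, for connective tissue growth factor, read 114, 527 and 1143 in control, acetaldehyde and ethanol; CCN1, for its relative CYR61, read 118, 335 and 435. IGFBP3, which binds insulin-like growth factors outside the cell, read 119, 323 and 536. RBMS3, for an RNA-binding protein, read 80.4, 255 and 509. VGLL3, which encodes a TEAD-binding cofactor, read 298, 635 and 494 and so stood higher in acetaldehyde than in ethanol.

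Promoter sequences are shown for CCN2 and TGFB2, because they are the ones in this group whose window before the start held the letters to which TEAD factors bind, GGAATG on either strand. Promoters came from RefSeq on GRCh38.p14, 250 bases before the first start listed for each gene, and the table held 90 of the 121 genes past 2-fold. In the lines that follow, capitals mark GGAATG or its reverse complement CATTCC. The CCN2 window is chr6:131951373-131951622 on the minus strand and the TGFB2 window chr1:218345086-218345335 on the plus strand.
CCN2: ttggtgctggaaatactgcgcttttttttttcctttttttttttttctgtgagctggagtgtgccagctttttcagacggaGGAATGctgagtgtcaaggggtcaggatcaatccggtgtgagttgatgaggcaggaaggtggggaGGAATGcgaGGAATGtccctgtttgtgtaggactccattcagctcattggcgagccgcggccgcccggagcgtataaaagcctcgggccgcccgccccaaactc
TGFB2: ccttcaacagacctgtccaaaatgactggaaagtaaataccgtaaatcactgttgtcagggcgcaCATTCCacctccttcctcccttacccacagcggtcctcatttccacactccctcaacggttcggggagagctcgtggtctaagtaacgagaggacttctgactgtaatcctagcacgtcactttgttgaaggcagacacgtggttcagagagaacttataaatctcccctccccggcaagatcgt
CCN2 held 3 copies, which began 169, 104 and 95 bases before the start, and TGFB2 held 1, which began 185 bases before it. The windows of IGFBP3, RBMS3 and VGLL3 held no copy, which says only that these letters were not in them, and CCN1 was not matched. Over the 86 matched genes at least 2-fold higher, 13 (15.1%) held GGAATG, against 9.24% of 8978 windows of all compared genes and 11.9% of 27303 windows in the table. Of the other motifs searched on both strands, TGANTCA (AP-1) was in 4.65%, 3.84% and 6.60% in the same order, the CArG box of serum response factor in 3.49%, 0.991% and 1.14%, CACCTG (ZEB) in 10.5%, 15.9% and 17.5%, TGANNNNGC (NRF2) in 38.4%, 35.9% and 35.4%, and CCGGAA (ETS) in 10.5%, 24.8% and 14.8%. AP-1 and NRF2 letters can overlap. These shares are descriptions and were not tested. The windows also differed in base composition, with a median of 58.8% G and C in the higher genes, 65.2% in all compared genes and 58.0% in the whole table.

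**Figure D2:**
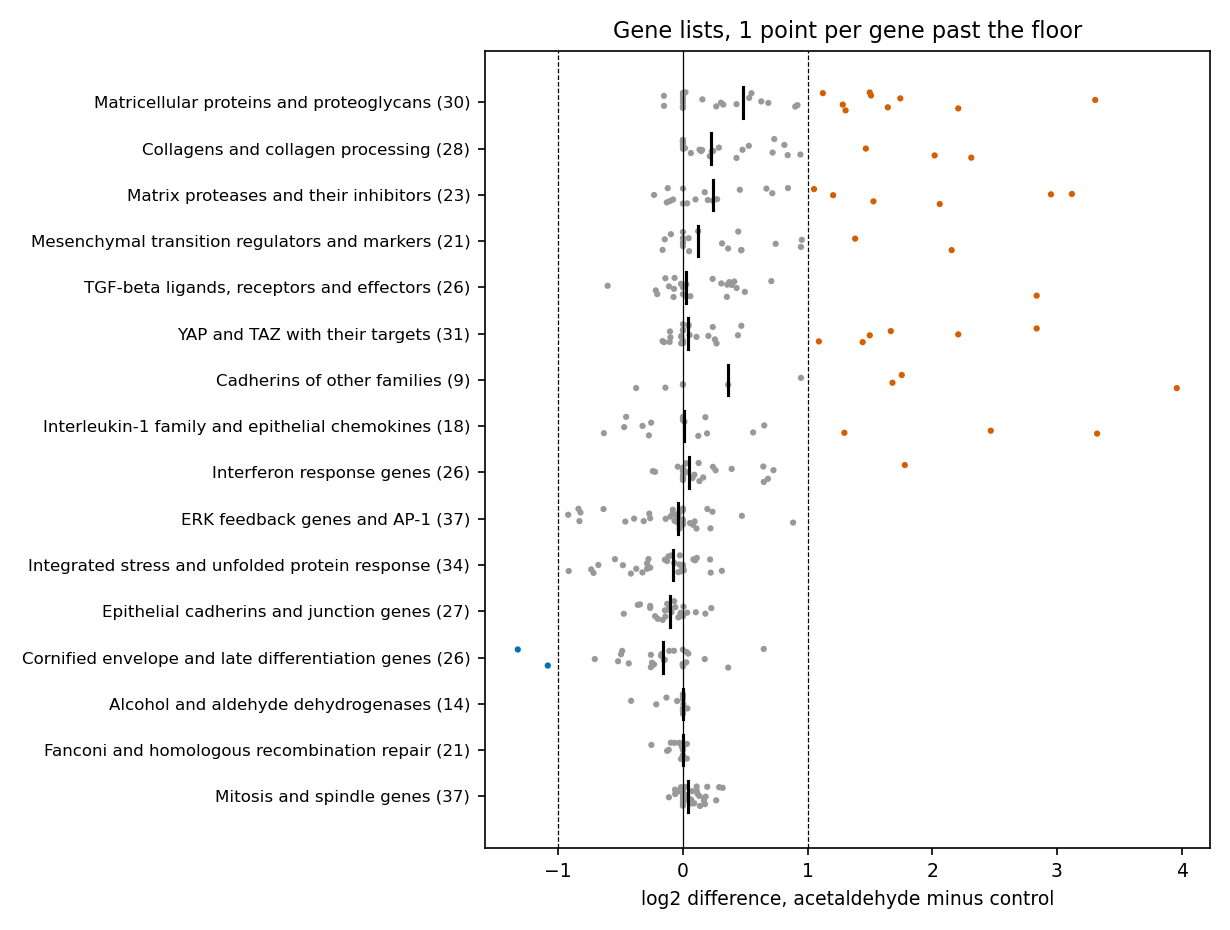
Log2 difference, acetaldehyde minus control, for genes of 16 lists (1 point per gene past the floor, the number in brackets; vertical scatter is for legibility, black bars are list medians, dashed lines 2-fold). Matrix lists reach far to the right, the ERK feedback and stress response lists trail to the left without passing 2-fold, and aldehyde dehydrogenases and Fanconi genes cluster at 0.

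Of 20 compared FGF, PDGF, VEGF and angiopoietin genes, 4 were at least 2-fold higher and 0 lower, with a median of 0.04. ANGPT1, which encodes the TIE2 ligand angiopoietin, read 78.5 in control, 704 in acetaldehyde and 1168 in ethanol. CSF1, the macrophage growth factor gene, read 149, 513 and 955; KITLG, the ligand of KIT, 60.2, 129.7 and 128; and PDGFC 132, 279 and 429.8. VEGFA was the lowest of this list, with -0.34. DKK1, a secreted Wnt antagonist gene, was the only 1 of 30 Wnt genes past 2-fold, at 274, 1192 and 1829. IGFBP4 read 429.9, 1829 and 2572, which with IGFBP3 made 2 of 6 IGF binding protein genes. PLXND1, a semaphorin receptor gene, was the only 1 of 29 guidance genes past 2-fold, at 131, 387 and 707.

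Of 18 compared genes of the interleukin-1 family and epithelial chemokines, 3 were at least 2-fold higher, the receptor genes IL1R2 and IL1R1 and the chemokine gene CXCL2, and 0 lower, with a median of 0.01. IL1R2, which encodes the decoy receptor that captures interleukin-1 without signalling, read 288 in control, 2882 in acetaldehyde and 2976 in ethanol, so both treated arrays were nearly level. IL1R1, the signalling receptor gene, read 53.7, 297 and 435. The ligand genes IL1A and IL1B had log2 differences of -0.63 and -0.32. IL7R, the interleukin-7 receptor gene, read 31.6, 287 and 428 and was the only 1 of 10 genes of the IL6 and IL7 families past 2-fold. Its control was under the floor, and of the 9 genes of this list past the floor in control 0 were 2-fold higher. Of the chemokine genes CXCL2 read 125, 307 and 344, CXCL8 had 0.65, and CCL20 had -0.25 in acetaldehyde but 1.77 in ethanol. In the interferon list 1 of 26 was past 2-fold, IFI44L, at 39.8, 137 and 305. IFI44L was also under the floor in control, and of the 25 genes of this list past the floor there 0 were 2-fold higher. The class I antigen genes HLA-B, HLA-F and HLA-C had 0.73, 0.68 and 0.65.

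Receptors and enzymes of second-messenger signalling also appeared. PDE8B and PDE7B, which encode phosphodiesterases that break down cyclic AMP, were 2 of 13 compared phosphodiesterase and adenylyl cyclase genes past 2-fold, and 0 were lower. Both were under the floor in control, so they entered the comparison through the acetaldehyde array alone. Of the 10 genes of this list past the floor in control, 0 were 2-fold away. PDE8B read 49.4, 504 and 896 in control, acetaldehyde and ethanol, and PDE7B read 54.4, 169.8 and 296. LPAR1, a lysophosphatidic acid receptor gene, read 32.0, 216 and 247, and ENPP2, which encodes autotaxin, the enzyme that makes that ligand, 37.6, 124 and 138. Against the floor, ENPP2 was at least 1.76-fold higher. PTGER2, a prostaglandin E2 receptor gene coupled to cyclic AMP, read 31.8, 106 and 184, at least 1.51-fold higher. RGS2, a brake on receptor-coupled G proteins, was the brightest in control of the higher genes, at 761, 1861 and 1333, and GNG11, for a G protein gamma subunit, read 64.9, 249 and 655.

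PCDH18 and PCDH9, protocadherin genes, and FAT4, for a giant cadherin of planar polarity, were 3 of 9 compared cadherin genes outside the classical epithelial ones past 2-fold. All 3 were under the floor in control, so they entered the comparison through the acetaldehyde array alone, and of the 5 genes of this list past the floor in control 0 were 2-fold away. PCDH18 read 31.5, 490.4 and 698 in control, acetaldehyde and ethanol. PCDH9 read 35.6, 114 and 141, and FAT4 25.4, 85.9 and 117. Against the floor, PCDH9 was at least 1.62-fold and FAT4 at least 1.22-fold higher. SAMSN1, an adaptor gene known from immune cells, had the dimmest control of the higher genes, 21.4, and read 248 and 330.0 on the acetaldehyde and ethanol arrays. The immune defining markers PTPRC, CD3E and LYZ were under the floor and equal on these arrays; the summed intensity of the 11 immune markers was 1219 in control, 1543 in acetaldehyde and 1959 in ethanol, with CD68, a lysosomal gene, at 721, 1055 and 1484.

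Of 19 genes of fatty acid uptake, storage and PPARG response, 2 were at least 2-fold higher, CD36 and FABP4, and 0 lower, with a median of 0.22. CD36, a fatty acid transporter gene, read 125 in control, 488 in acetaldehyde and 2648 in ethanol. FABP4, a fatty acid carrier and adipocyte marker, read 41.8, 152 and 2163. Both were above control in acetaldehyde, by 3.90-fold and at least 2.16-fold, and far below ethanol. Of 6 adipocyte markers, FABP4 was the one past 2-fold; their summed intensity was 308 in control, 468 in acetaldehyde and 2586 in ethanol, and ADIPOQ, LEP and LPL were under the floor and equal on these 3 arrays. ANGPTL4, a lipoprotein lipase inhibitor gene, stood at -0.28 in acetaldehyde and 1.04 in ethanol. In the list of cholesterol and fatty acid synthesis 1 of 32 genes was past 2-fold, with a median of 0.00: FADS2, which encodes a fatty acid desaturase, at 132, 265 and 662.

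Outside the lists stood 60 of the 115 higher genes. Among them, HPD, for an enzyme of tyrosine breakdown, read 92.1 in control, 507 in acetaldehyde and 975 in ethanol. AOX1, for an aldehyde oxidase, read 58.6, 245 and 465. DSEL, a gene of dermatan sulfate epimerisation, read 46.5, 379 and 468, and SULF1, for a heparan sulfate editing enzyme, 58.8, 247 and 362, so 2 sugar-modifying genes of the matrix stood beside the proteoglycans. The collagen receptor gene DDR2 read 46.3, 157 and 271, though a second, dimmer probe set gave a log2 difference of 0.67 in place of 1.77. PTCHD4 likewise had 2 probe sets that disagreed, with 1.05 and 0.07. Within the lists, the myoepithelial peptidase gene MME was the 1 basal marker past 2-fold, at 646, 2133 and 2336.

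**Figure D3:**
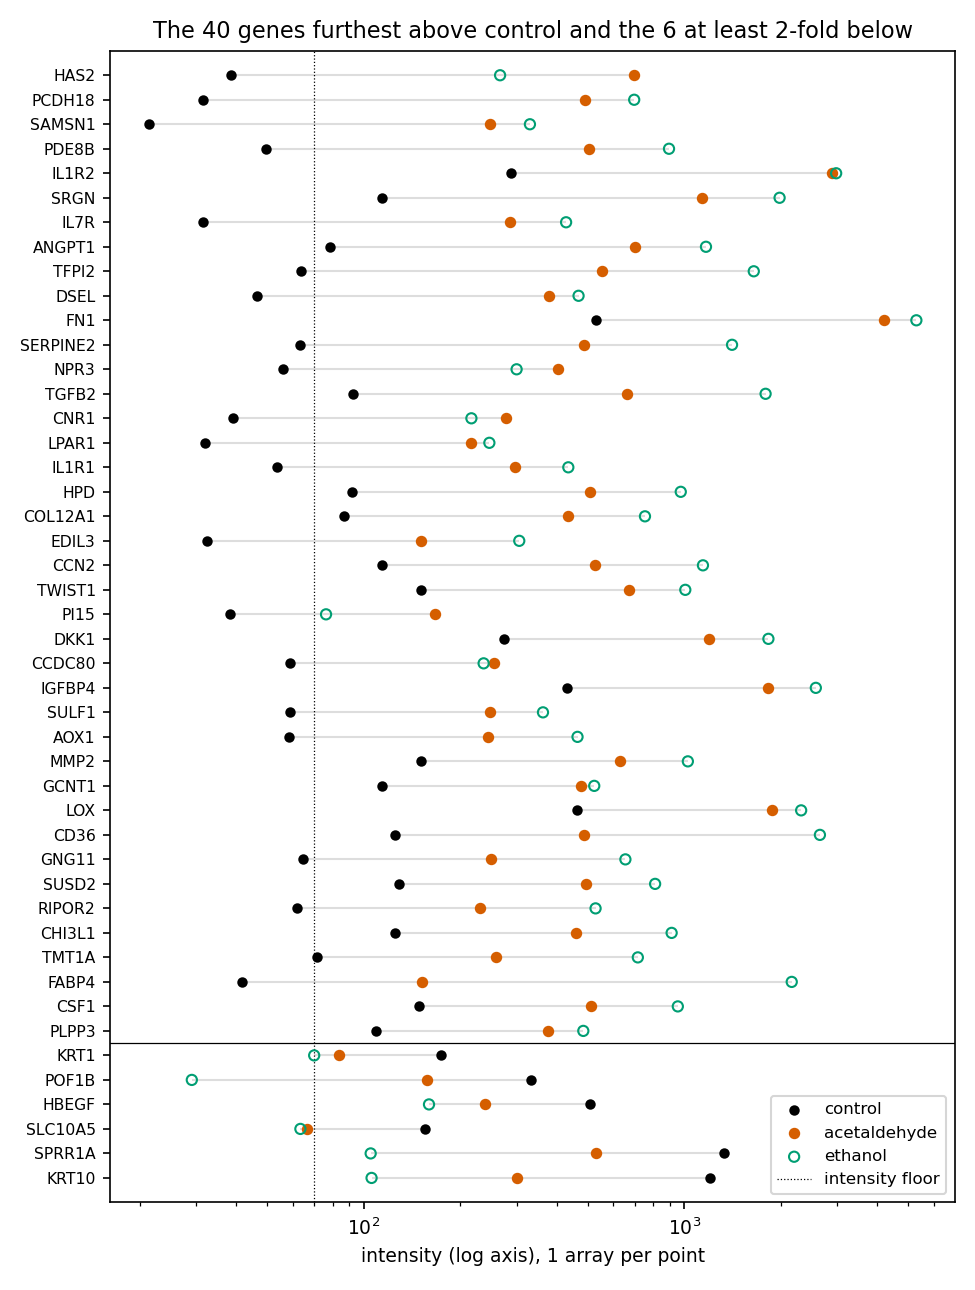
Intensity (log axis) on the control, acetaldehyde and ethanol arrays for the 40 genes furthest above control and, under the line, the 6 at least 2-fold below, 1 array per point and the floor dotted. Filled orange points (acetaldehyde) lie between control and ethanol in most rows; in the HAS2, NPR3, CNR1, PI15 and CCDC80 rows they lie to the right of both.

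Of the 6 lower genes, 4 are known from stratified or junctional epithelium. KRT10, which encodes the keratin of suprabasal cells, read 1205 in control, 302 in acetaldehyde and 106 in ethanol, and its partner KRT1 read 174, 83.5 and 70.1. SPRR1A, a small proline-rich gene of the cornified envelope, read 1329.9, 531 and 105, and POF1B, an actin-binding gene of epithelial junctions, 333, 157 and 29.1. Thus 2 of 16 keratin genes and 2 of 26 cornified envelope and late differentiation genes were at least 2-fold lower and 0 of either higher. SLC10A5, a gene of the bile acid carrier family, read 155, 66.5 and 63.5. HBEGF, which encodes a ligand of the EGF receptor, read 509, 238 and 159.9 and was the only 1 of 9 EGF family and receptor genes past 2-fold.

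With the genes past 2-fold included, more genes of these lists lay under control than over it. Over all compared genes the median of the log2 difference was 0 and its lower and upper quartiles were -0.027 and 0.025. The share of all compared genes under control was not counted, so the counts below have no such share beside them. Of 26 cornified envelope and late differentiation genes 18 were lower than control and 6 higher, with a median of -0.16. In this list 3 were at least 1.5-fold lower, the third being SPRR1B at 1486 in control, 910.0 in acetaldehyde and 124 in ethanol. Of 16 keratin genes 8 were lower, 7 of them on both treated arrays, and 5 higher, with a median of -0.02; KRT23 had -0.72 and KRT4, a keratin of mucosal epithelium, -0.55. CDSN and SBSN, for proteins of cornified cells, had -0.52 and -0.50.

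A smaller number of epithelial genes, chosen after their values were seen, stood on opposite sides of control on the treated arrays. KRT14 and KRT16, keratins of basal and of activated cells, had log2 differences of 0.39 and 0.32 in acetaldehyde, against -2.53 and -3.27 in ethanol. TGM1, for the transglutaminase that cross-links the cornified envelope, read 247 in control, 387 in acetaldehyde and 57.1 in ethanol. S100A8 and S100A9, for the paired calcium-binding proteins of calprotectin, read 2858, 3917 and 817 and 478, 687 and 168. GRHL1, an epithelial transcription factor gene, had 0.50 and -1.58, CD24 0.39 and -3.87, and the aldo-keto reductase gene AKR1B10 0.55 and -2.85, acetaldehyde before ethanol. In each gene named in these sentences the acetaldehyde array stood above control and the ethanol array below it; none was 2-fold from control in acetaldehyde.

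Several genes induced by ERK, the kinase at the end of the growth factor cascade, were lower in acetaldehyde, though none reached 2-fold. Of 37 compared genes of ERK feedback and AP-1, 5 were at least 1.5-fold lower and 1 at least 1.5-fold higher, where 0.411% and 2.16% of all compared genes were; the list median was -0.04. DUSP6, which encodes the phosphatase that switches ERK off, read 328 in control, 173 in acetaldehyde and 391 in ethanol. SPRY4, a Sprouty inhibitor gene of the same cascade, read 247, 138 and 301, and ETV5, an ETS factor gene downstream of ERK, read 419, 236 and 399.9. The acetaldehyde array was the lowest of the 3 for each of these genes, and the ethanol array differed from control by -0.07 (ETV5) to 0.28 (SPRY4) on the log2 scale. The ligand gene EREG read 379, 254 and 439.6 and the ERK-responsive gene PHLDA1 389.9, 297 and 539, so the acetaldehyde array was again the lowest of the 3. EGR1 and IER3, also among the 5, were lower than control on both treated arrays, at 907, 513 and 431 and at 729, 468 and 516. DUSP10, a phosphatase gene for stress kinases, was the one higher, with 0.88. EGF was in the medium of every culture.

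**Figure D4:**
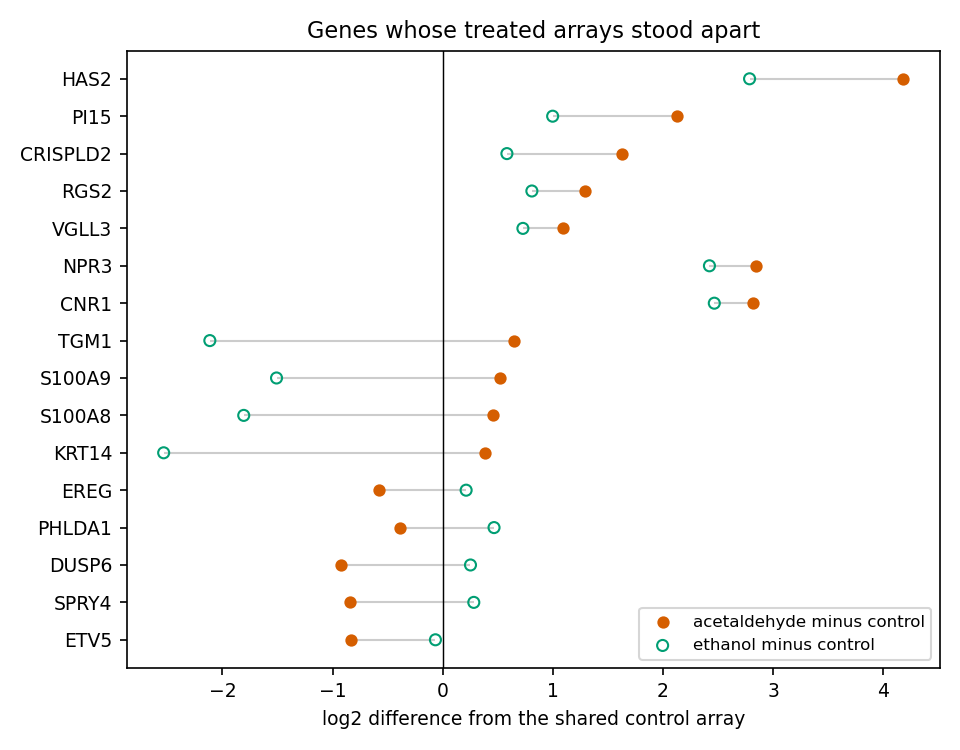
Log2 difference from the shared control array for 16 genes chosen after their values were seen, acetaldehyde filled and ethanol open. HAS2, PI15 and CRISPLD2 lie further right in acetaldehyde, TGM1, S100A9, S100A8 and KRT14 lie on opposite sides of 0, and DUSP6, SPRY4, EREG and PHLDA1 lie left of 0 in acetaldehyde and right of it in ethanol.

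Set directly against the ethanol array, 103 of the 115 higher genes were brighter in ethanol, 11 in acetaldehyde and 1, SPARC, was equal; the median acetaldehyde minus ethanol was -0.67 on the log2 scale, against 0 over all compared genes. In 21 of the 115, ethanol was at least 2-fold brighter, where 0.526% of 11221 genes compared between these 2 arrays were that much lower in acetaldehyde. In 3 acetaldehyde was at least 1.5-fold brighter (3.79% of the 11221), and by the values as deposited these 3 were also past 2-fold. They were HAS2; PI15, a peptidase inhibitor family gene, which read 38.2 in control, 167 in acetaldehyde and 76.3 in ethanol; and CRISPLD2, for a secreted protein of the same superfamily, which read 40.9, 126 and 61.3. CRISPLD2 lay under the floor in ethanol, and against the floor it was at least 1.80-fold brighter in acetaldehyde. RGS2, VGLL3, NPR3 and CNR1 were also brighter in acetaldehyde, by less than 1.5-fold. NPR3, the natriuretic peptide clearance receptor gene, read 56.0, 403 and 299.9, and CNR1, the cannabinoid receptor gene, read 39.3, 277 and 217.

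The clone selected in soft agar and exposed to 2.5% ethanol for 4 weeks stands with its own control in a separate table of another array design. The 2 share no array with this comparison. Levels are not compared across the tables. Of the 115 higher genes, 112 had a value there and 109 were past that table's own median. At least 2-fold higher in the clone were 103 of the 109 and 0 were 2-fold lower, where 14.7% of 12262 genes of that table were 2-fold higher. Genes dim in the clone's control, HAS2 and CNR1 among them, passed that median only through the clone, where they are high. The count is therefore partly set by that median, and the 14.7% is not matched for control level. HAS2 read 36.7 in the clone's control and 1138 in the clone, and CNR1 37.0 and 613. The 9 that were not 2-fold higher, or were under that table's median in both, were BGN, COL6A1, CXCL2, DDR2, GALNT15, HPD, ITGA5, RGS2 and SAMSN1. SAMSN1 read 14.9 and 15.3, CXCL2 93.5 and 102, BGN 213 and 183, and RGS2 1971 and 1394, clone's control before clone. DUSP6 and ETV5 were higher in the clone, at 50.3 and 254 and at 45.8 and 297, whereas SPRY4 read 167 and 158.

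None of 14 alcohol and aldehyde dehydrogenase genes was 1.5-fold away, and 8 had equal values on both arrays, among them ALDH2, the main mitochondrial enzyme for acetaldehyde, ALDH3A1, ALDH9A1 and ADH5. The lowest was ALDH1L2, a mitochondrial folate enzyme gene, with a log2 difference of -0.42, and the highest ALDH1B1 with 0.04. AOX1, an aldehyde oxidase of another family, was higher, with 2.06. Of 21 Fanconi and homologous recombination genes, which repair the DNA cross-links that aldehydes can cause, 0 were 1.5-fold away and 11 were equal; the range was -0.25 for RAD51C to 0.03 for ERCC1. The same held for 30 genes of other repair and damage signalling, which ranged from -0.19 to 0.32. Among 24 p53 targets 1 was 1.5-fold away, GDF15 with -0.60, and the cell cycle inhibitor gene CDKN1A had 0.26.

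Of 34 integrated stress and unfolded protein response genes, 4 were at least 1.5-fold lower, 0 higher and none 2-fold away, with a median of -0.08. TRIB3, a pseudokinase gene induced by ATF4, read 638 in control, 338 in acetaldehyde and 228 in ethanol. CHAC1, which encodes a glutathione-degrading enzyme, read 281, 169 and 90.2, DDIT3, for CHOP, 396, 241 and 146, and the cystine transporter gene SLC7A11 877, 548 and 281. All 4 were lower on the ethanol array than on the acetaldehyde array. In the glutathione, thioredoxin and NRF2 list 3 of 37 were at least 1.5-fold higher, SOD2 with 0.78, GSR with 0.62 and GPX8 with 0.62, and 1 was lower, SLC7A11; NQO1 and HMOX1, standard readouts of NRF2, had -0.06 and 0.02. None of 16 heat shock genes, 11 metallothioneins or 7 aryl hydrocarbon receptor genes was 1.5-fold away.

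Growth and housekeeping genes were close to control. Of 41 replication and thymidylate genes, TYMS was at least 1.5-fold higher with 0.60 and CDC6, for a replication licensing factor, lower with -0.62. None of 37 mitosis genes, 29 oxidative phosphorylation genes, 24 ribosomal protein genes or 14 HOX genes reached 1.5-fold. Over the 56 lists, 27 held a gene at least 2-fold higher, 3 a gene at least 2-fold lower, and 26 neither. A gene can stand in several lists, so these lists are not independent.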

How the data were processed

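Total RNA was labelled with biotin and run on Gene ST arrays of Affymetrix, with 1 culture in each group, per the labels' protocols. The authors deposited linear intensity values made with RMA, as named in the submitters' processing notes; RMA usually gives log2 values, and that these are their antilogs was taken from their range; its version and a genome build are not given in the sources used here. This method subtracts a modelled background, gives all arrays of a run one distribution and combines probes by median polish, so levels of different probe sets are not compared. From the deposited intensities, log2 was taken and the control array subtracted from the acetaldehyde array. Of 33297 probe sets, 19181 name 1 symbol in the array annotation, 2055 name several and 12061 are unlisted; the last 2 kinds were not named. Of the 19181, 19143 matched a RefSeq gene record and 0 were renamed. The 895 genes with several probe sets were read from the one brightest over the 3 arrays. Where the dimmer array was under the floor, the fold is a lower bound taken against the floor; log2 differences use values as deposited. With 1 array per group the spread between cultures is unknown, and precision is limited by the number of arrays.

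The 56 gene lists (1517 genes, 1356 measured), the named genes and the comparison itself were chosen with earlier results of these data known. Named were the 40 genes furthest above control, every gene at least 2-fold lower, list members past 2-fold and the furthest member of a list each way. Also named were genes at least 2-fold from control and at least 1.5-fold from ethanol in the same direction, and aldehyde genes. The ERK, epithelial and clone examples, list members short of 2-fold and the ETS motif were chosen after their values were seen. Alternatives covered the floor, fold, centring, lowess, quantile normalisation, probe choice and dim values. Calculations used Python 3.11.15, pandas 2.3.3 and statsmodels 0.14.6 and were tested on simulated data.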

Additional observations from a re-analysis of the deposited data

Results flagged for a closer look

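In 20 genes the acetaldehyde and ethanol arrays stood on opposite sides of the control array, each by at least 0.2 on the log2 scale. Both differences use the same control array, the doses differ, and the difference between them was not tested. In 13 of them acetaldehyde was above control and ethanol below. The differences of acetaldehyde from control were 0.65 for TGM1, 0.55 for AKR1B10, 0.52 for S100A9, 0.50 for GRHL1, 0.45 for S100A8, 0.44 for FGFBP1, 0.42 for PLK2, 0.39 for KRT14 and for CD24, 0.36 for LY6D, 0.34 for EGLN3, 0.32 for KRT16 and 0.29 for EPGN. In 7 the order was the reverse, with -0.92 for DUSP6, -0.84 for SPRY4, -0.58 for EREG, -0.47 for SLC20A1, -0.39 for PHLDA1, -0.28 for ANGPTL4 and -0.25 for CCL20.

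Probe sets that name no single gene also held differences. Of 1192 such sets past the floor that name several symbols, 8 stood at least 2-fold above control in acetaldehyde and 0 below. Of 3782 that the annotation does not list, 11 were at least 2-fold higher and 3 lower. The unlisted set 7896709 read 121 in control, 604 in acetaldehyde and 1024 in ethanol, and the set 8116418 read 88.5, 436 and 672. Lowest was the set 7894570, at 83.2, 23.1 and 61.4, so acetaldehyde was the lowest of the 3 arrays there.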

How the results depend on the processing

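The count of 115 higher genes was 73 with the floor at the 75th percentile, 242 at a 1.5-fold threshold and 56 at 3-fold, and between 96 and 117 under the other alternatives, which covered other floors, centring, lowess, quantile normalisation, probe choice and dim values raised to the floor. The count of 6 lower genes was 46 at 1.5-fold, 1 at 3-fold, 4 with the higher floor and 6 otherwise. Among 170 named genes and 53 list medians, none that was over 1.5-fold from control changed sign. The 170 leave out some genes named in this text, ENPP2 and PTGER2 among them, so counts out of 170 do not cover every named gene. The median of the other cadherins went from 0.36 to -0.07 with the higher floor. For single genes most of the alternatives could hardly reverse a sign, so the absence of such changes says little about stability. Another floor or fold threshold leaves a gene's log2 difference as it is. Lifting a dim value up to the floor cannot swap the order of the arrays. Centring shifted values by only 0 or -0.004. With dim values raised to the floor, 17 of those 170 moved by over 1.5-fold, among them HAS2 to 3.31 on the log2 scale, PCDH18 to 2.80 and SAMSN1 to 1.82. Of the 115, 19 were then under 2-fold: ANKS1B, BLMH, CRISPLD2, DAB2, DCN, ENPP2, EYA1, FAT4, FBN1, GALNT15, IFI44L, KCNK2, KITLG, LAMA4, PCDH9, PDCD1LG2, PRKD1, PTGER2 and TMEM100, between 1.18-fold (TMEM100) and 1.95-fold (IFI44L). With the higher floor, the medians of the IGF binding protein and phosphodiesterase lists moved to 1.44 and 1.93, since fewer genes remained. Taking the brightest probe set over the acetaldehyde and control arrays was added after seeing the data and gave 114 higher genes. Leaving out genes with equal values was also added then. Its count of 115 was fixed in advance, because a gene with equal values cannot be 2-fold away. No paired analysis was possible because each group had 1 array. Signal near the floor limits how large the folds of dim genes can be stated.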

Other observations

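Some higher genes outside the lists, chosen after their values were seen and forming no list, are given here by their values. TBX18, a T-box transcription factor gene, read 577 in control, 1285 in acetaldehyde and 1668 in ethanol. EBF1, known from adipocyte and B cell development, read 87.2, 183 and 276, and GLIS3, a zinc finger factor gene, 58.1, 144 and 219. All 3 were between control and ethanol on the acetaldehyde array.

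PROS1, for the anticoagulant protein S, read 106 in control, 287 in acetaldehyde and 305 in ethanol, so both treated arrays were nearly level. C1S, a complement protease gene, read 104, 258 and 587. FERMT2, for an integrin-activating kindlin, read 187, 378 and 511, and TNS3, for a tensin, 168, 409 and 663. CSGALNACT1, for an enzyme that starts chondroitin chains, read 55.6, 164 and 285, and TPST1, for one that sulfates tyrosines, 313, 720.3 and 1251. Each gene named here stood highest on the ethanol array.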
